A study of Homo sapiens and Mus musculus with 12 samples.

Results

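The machinery of the 3 nuclear RNA polymerases was described in the input, monosome and polysome RNA of a human melanoma line, A375, and a mouse one, Yumm1.7. Members were the rows whose symbol names a subunit of polymerase I, II or III (Pol I, Pol II and Pol III) or one of the initiation factors of Pol I and Pol III. The rule took 59 of 16782 rows in A375 and 45 of 12711 in Yumm1.7. Of the A375 rows, 8 were antisense, pseudogene or readthrough names and were kept out of all classes. The other 51 genes were sorted into 6 classes by which enzyme the protein serves, and all 45 Yumm1.7 rows fell in the same classes. In Yumm1.7, 3 Pol I subunits stand under older symbols that the rule does not match (Twistnb, Cd3eap and Znrd1), so its Pol I class held 3 genes and that of A375 held 6.

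Per the series' design text, each line was profiled in its parental form and as persisters, cells that tolerate the drug, which survive a drug without stable resistance. The titles call the states P and S without saying which is which, and those letters are used here. Each of the 12 libraries stands alone: 1 input library, 1 monosome library (the single-ribosome peak with the lighter fractions just before it) and 1 polysome library (the last fractions of the sucrose gradient, which hold the mRNAs with the most ribosomes) per state and line. RNA was selected with poly-T beads, so mRNAs of the polymerase genes were measured and not the RNAs that Pol I and Pol III make. The sources used here do not give the drug, its dose, the time of treatment, or any clone or pool. No group has a replicate, so no difference below was tested and none can be set against a spread between samples.

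Each nuclear polymerase makes a different set of RNAs. Pol I works in the nucleolus and makes the precursor of the large ribosomal RNAs, Pol II makes mRNAs, and Pol III makes tRNAs, the smallest ribosomal RNA and other short RNAs. The enzymes are built around a pair of large catalytic subunits of their own, with several small subunits common to all of them and one pair common to Pol I and Pol III. Pol I and Pol III output is tied to growth signalling, among it the ERK pathway that mutant BRAF drives in melanoma and the mTORC1 kinase, which act on the initiation factors RRN3 and UBTF of Pol I and on MAF1, a repressor of Pol III.

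Values are TPM, a read density per transcript length scaled within a library, so levels can be compared between genes, and depth is unknown. The listed genes summed to 66.6% to 90.1% of 1000000 TPM in A375 and 84.5% to 94.4% in Yumm1.7. In Yumm1.7, 1581 genes stood at 0 in S input and 316 in P input, and mitochondrially encoded transcripts took 19.1% of TPM in S input against 9.86% in P. In polysomes that share was 1.90% in P and 19.4% in S of Yumm1.7, and 2.23% and 9.15% in A375. The part of these transcripts in the differences was not tested. Rescaling without them cannot decide it, since a factor common to a library largely cancels when the median gene is subtracted. Differences are of log2(TPM + 1), which understates those of low genes, and are given relative to the median of all genes whose mean over the 6 libraries reached 1 TPM. That median gene was itself shifted, by -0.20 in A375 input and -0.94 in Yumm1.7 input. In polysomes it was shifted by -0.21 and -1.53, and in monosomes by 0.04 and -0.21, in the same order. For polysomes against monosomes the shift was 1.05 in P and 0.67 in S of A375, and 0.91 and -0.46 in those of Yumm1.7. Counts as deposited keep this shift, and the share of all genes was not counted in that setting. "Higher" and "lower" in a count mean at least 2-fold on this scale, in S relative to P unless said otherwise. The "highest" and "lowest" member, subunit or factor are ranked by their difference on this scale and not by TPM. All members of the classes passed the filter except POLR2J3 of A375, at 0.864 TPM in P input and 0.330 in S input.

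Markers of the labelled cell type were present in A375 (9 of 11 melanocyte and melanoma genes listed, summing to 1166 TPM in P input and 3005 in S) and sparse in Yumm1.7 (6 of 11, 44.5 and 111), where S100b was at 0 in both input libraries. S100A1 alone held 558 and 2123 TPM of the A375 sums and 30.2 and 101 of those of Yumm1.7. Of the markers tested in input, 3 of 8 were higher and 0 lower in A375, and 1 of 3 and 0 in Yumm1.7. MITF lay below the median gene in both lines (-0.42 and -0.94), as did EDNRB in A375 (-0.21). Of 10 fibroblast markers, 8 were listed in Yumm1.7. Relative to the median gene, 4 of 5 tested were higher in S input and none was lower. The summed level of the 8 was 182 to 389 TPM over the P libraries and 169.7 to 334 over the S libraries. Pdpn, the tested marker that was not higher (-0.72), held 214 of 232 TPM in P input and 67.3 of 193 in S input. The 4 higher ones were Col1a2 (12.4 and 74.1 TPM in P and S input), Dpt (0.926 and 35.2), Pdgfrb (4.29 and 11.1) and Dcn (0.0648 and 3.64). In A375, 4 of 10 were listed, at 1.60 to 7.34 TPM in P and 4.45 to 18.0 in S. Endothelial and keratinocyte markers were listed for at most 1 of 3 genes, at up to 2.23 TPM, and leukocyte markers for 1 of 5 (up to 3.36 TPM in A375, and 8.18 to 15.0 in P and 0.356 to 0.849 in S of Yumm1.7). In bulk RNA, fewer cells of a type and less RNA per cell cannot be told apart. The part of other cell types in the results below was not tested.

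In input RNA of A375, more of the machinery was lower than higher in S. Of 50 genes, 10 were lower and 2 higher, where 16.2% and 15.6% of all genes were, and the median was -0.45. In Yumm1.7, 14 of 45 were lower and 6 higher, against 22.3% and 23.1% of all genes, with a median of -0.18. As deposited, without centring, the counts were 0 higher and 27 lower in Yumm1.7, where the median gene itself stood at -0.94. In A375 they were 2 higher and 13 lower, with the median gene at -0.20. With a minimum of 5 TPM, 7 were lower in A375, and the share of all genes was not counted in that setting. In the main setting, the share of members that was higher lay below that of all genes in both lines. The share that was lower lay somewhat above it there, which was not shown for the other settings. The classes did not lie together (the plot of input differences by class).

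**Figure D1:**
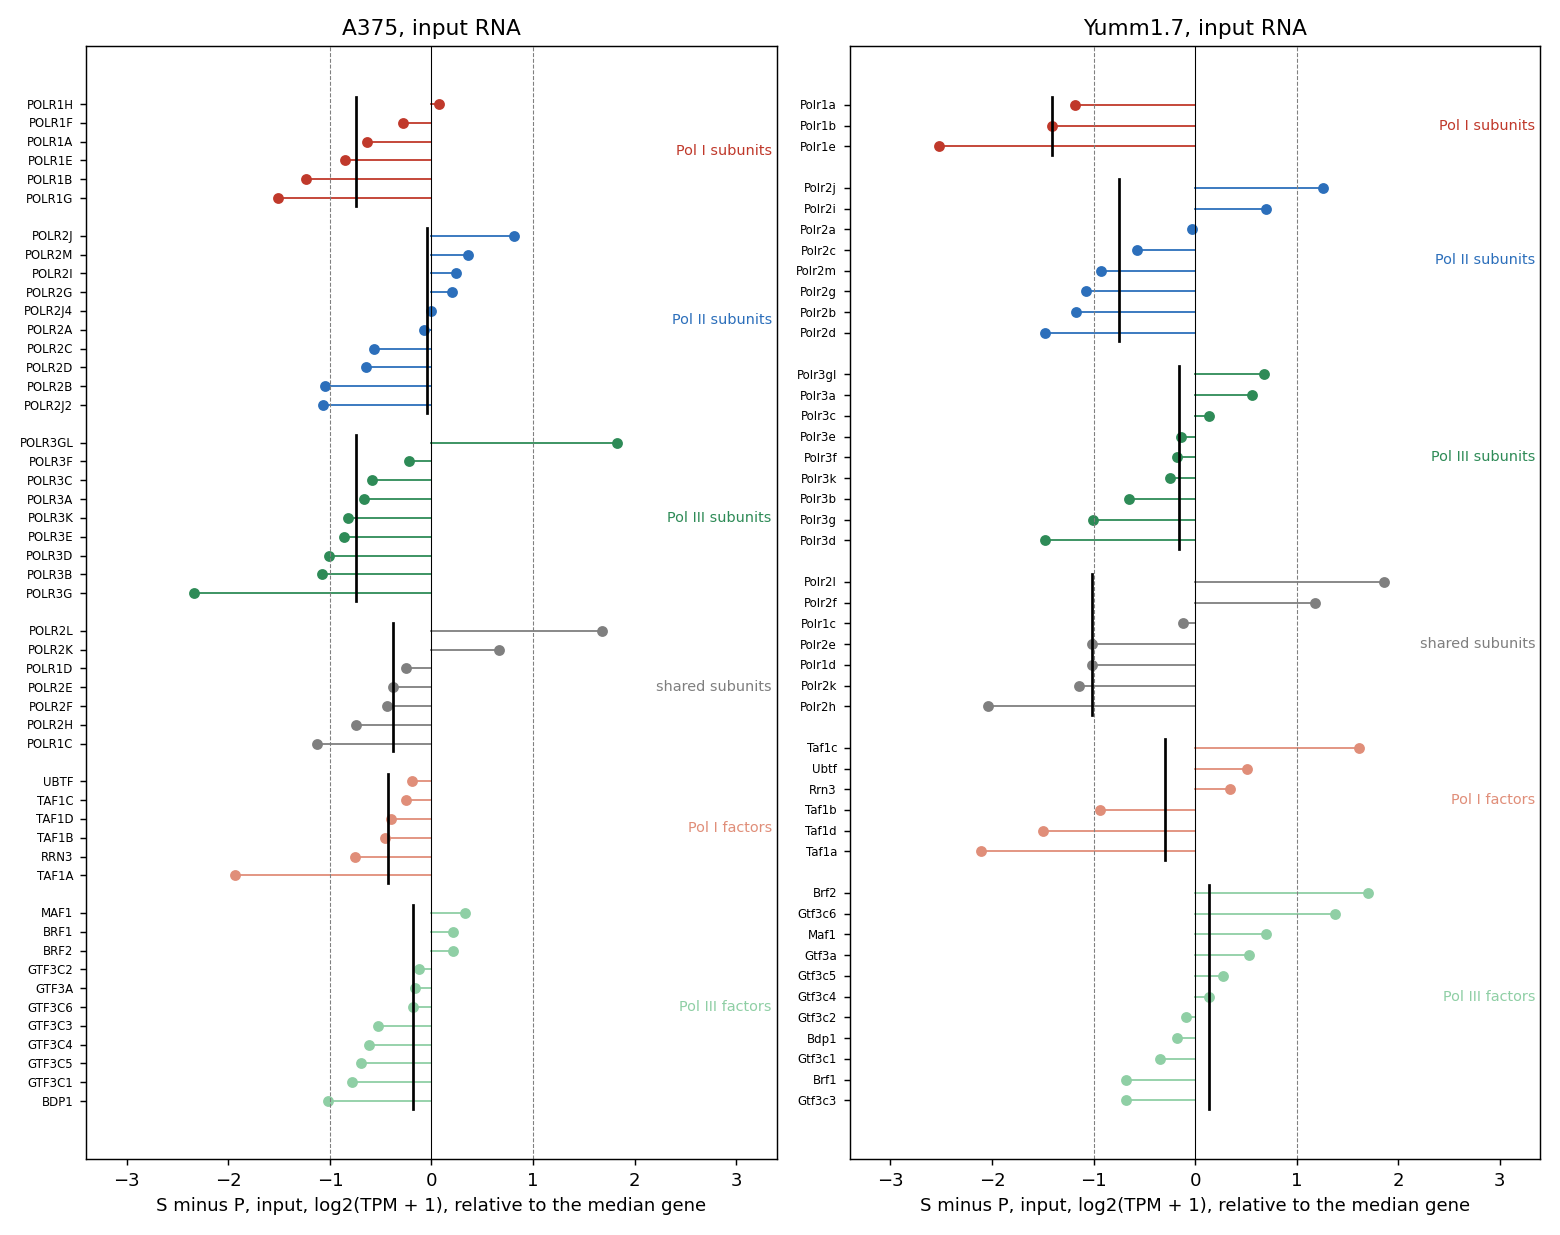
S minus P difference of log2(TPM + 1) in input RNA, relative to the median gene, for each tested member but 1 Pol III subunit (points, 1 library per group) by class in A375 (left) and Yumm1.7 (right). Black bars are medians of all members of a class and dashed lines mark 2-fold. Pol I subunits lay lowest as a class in Yumm1.7 (median -1.41), while POLR3GL and POLR2L were the highest members in A375.

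Pol I subunits were below the median gene in both lines, level with Pol III subunits in A375 and lowest of the classes in Yumm1.7. The median was -0.74 over 6 subunits in A375, with 2 lower, and -1.41 over 3 in Yumm1.7, all 3 of them lower (-1.27 with the 3 rows under older symbols). POLR1A, the largest subunit, which with POLR1B forms the active site, had 11.8 TPM in input, 2.76 in monosomes and 18.3 in polysomes of P, and 6.18, 1.76 and 8.92 in S of A375 (difference in input -0.64). In Yumm1.7 it had 15.6, 4.90 and 13.4 TPM in P and 2.82, 3.06 and 2.48 in S in the same order (input -1.18). Every S library was below the P library of the same fraction in both lines. POLR1B, the second catalytic subunit (chromosome 2, 112541915 to 112577150 in GRCh38), had 33.4, 12.9 and 45.5 TPM in P and 11.8, 7.61 and 12.8 in S in A375 (input -1.23), and 10.3, 3.25 and 16.1 TPM in P and 1.22, 2.19 and 1.58 in S in Yumm1.7 (input -1.41). It was 1 of 5 members lower in input of both lines.

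The furthest from the median gene was a different Pol I subunit in each line. POLR1G, part of a heterodimer that is particular to Pol I (chromosome 19, 45406209 to 45410766 in GRCh38), had 14.9, 5.43 and 28.9 TPM in P and 3.85, 1.59 and 7.87 in S in A375 and was lower in all 3 fractions (input -1.51, monosomes -1.35, polysomes -1.54). Its partner POLR1E had 34.5, 16.1 and 50.9 TPM in P and 16.1, 10.2 and 15.6 in S in A375 (input -0.85). In Yumm1.7, Polr1e had 17.0, 4.99 and 22.5 TPM in P and 0.643, 0.933 and 1.33 in S and was the lowest member of all in input (-2.52), lower in monosomes (-1.42) and polysomes (-1.80) as well. The Yumm1.7 row for the partner of Polr1e, Cd3eap, went the other way at 27.3 TPM in P input and 21.9 in S, which is 0.63 relative to the median gene. The genes of the heterodimer thus lay on the same side of the median gene in A375 and on opposite sides in Yumm1.7.

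The remaining Pol I subunits are those whose Yumm1.7 rows carry older symbols. POLR1F, a subunit of the stalk, had 23.8 and 16.7 TPM in A375 input, and its Yumm1.7 row Twistnb 17.7 and 2.80 (-1.36). POLR1H, a small zinc-ribbon subunit, was near the filter in A375 (1.23, 0.971 and 1.41 TPM in P and 1.05, 0.426 and 0.956 in S). Its Yumm1.7 row Znrd1 had 49.4 TPM in P input and 15.2 in S (-0.70). POLR1H lies among the MHC genes, of which some annotations carry further copies, so its A375 level is uncertain.

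The Pol I initiation factors were split. TAF1A, TAF1B, TAF1C and TAF1D form the promoter selectivity factor SL1 with the TATA-binding protein, UBTF bends ribosomal DNA for it, and RRN3 brings the enzyme in. TAF1A (chromosome 1, 222557902 to 222589933 in GRCh38) was the lowest Pol I factor in both lines, with 9.13, 1.79 and 15.5 TPM in P and 1.31, 0.866 and 4.19 in S in A375 (input -1.94) and 13.1, 9.92 and 12.1 TPM in P and 0.718, 7.44 and 4.17 in S in Yumm1.7 (input -2.11). Relative to the median gene it passed 2-fold in Yumm1.7 in input only, with -0.16 in monosomes and 0.20 in polysomes. TAF1C had 3.62, 1.30 and 5.33 TPM in P and 6.39, 5.77 and 2.74 in S in Yumm1.7, the highest of the Pol I factors there (input 1.61), and 23.5 and 16.9 TPM in A375 input (-0.25). TAF1D had 80.7, 123.2 and 76.2 TPM in P and 14.1, 30.7 and 5.69 in S in Yumm1.7 and was lower in all 3 fractions (input -1.50). In A375 it stayed within 2-fold in all of them.

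The levels of RRN3 and UBTF relative to the median gene stayed within 2-fold in input of both lines. RRN3 had 35.1, 12.3 and 47.4 TPM in P and 17.7, 15.3 and 24.2 in S in A375 and 43.9, 37.2 and 56.3 TPM in P and 28.7, 53.7 and 10.6 in S in Yumm1.7, and its near-identical pseudogenes make the A375 values less certain. UBTF, the most abundant Pol I factor in A375 input, had 88.2, 13.0 and 147 TPM in P and 67.0, 17.8 and 188 in S in A375. In Yumm1.7, Ubtf had 61.2, 15.9 and 134 TPM in P and 45.4, 40.0 and 31.3 in S, so its P polysome level was the highest of its 6 values there and its P monosome level the lowest. Counted as a class, the Pol I factors had a median of -0.43 in A375 (1 of 6 lower) and -0.30 in Yumm1.7 (2 lower and 1 higher).

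Pol II subunits lay nearer to the median gene in A375 (median -0.04 over 10, with 2 lower) than in Yumm1.7 (-0.75 over 8, with 3 lower and 1 higher). POLR2A, the largest subunit, whose C-terminal repeats recruit mRNA processing factors, had 26.0, 2.72 and 35.8 TPM in P and 21.3, 3.15 and 24.4 in S in A375 and was level with the median gene in input (-0.08). In Yumm1.7 it had 24.1, 5.54 and 25.9 TPM in P and 11.8, 19.0 and 6.92 in S (input -0.03, monosomes 1.82). POLR2B, its catalytic partner (chromosome 4, 56977722 to 57031168 in GRCh38), was lower in input of both lines (-1.05 and -1.17), with 91.7, 6.65 and 129 TPM in P and 38.0, 14.5 and 82.2 in S in A375 and 12.5, 4.30 and 26.2 TPM in P and 2.12, 3.02 and 3.07 in S in Yumm1.7. The ratio of POLR2B to POLR2A in input was 3.52 in P and 1.78 in S of A375, and 0.518 and 0.180 in those of Yumm1.7.

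The stalk and the small subunits of Pol II did not move as one. POLR2D, which forms the stalk with POLR2G, had 43.2, 34.3 and 21.5 TPM in P and 23.6, 20.3 and 6.44 in S in A375 and 66.0, 50.1 and 104 TPM in P and 11.6, 26.6 and 13.9 in S in Yumm1.7, where it was the lowest Pol II subunit in input (-1.48). POLR2G had 233, 49.4 and 352 TPM in P and 234, 65.6 and 469 in S in A375 and 130.2, 93.2 and 255 TPM in P and 31.7, 29.8 and 60.5 in S in Yumm1.7. POLR2J, a small assembly subunit (chromosome 7, 102473118 to 102478907 in GRCh38), was the highest Pol II subunit in both lines, with 157, 158 and 53.5 TPM in P and 240.2, 108 and 115 in S in A375 (input 0.81) and 182, 72.9 and 184 TPM in P and 228, 166 and 158 in S in Yumm1.7 (input 1.26). In Yumm1.7 it was higher in all 3 fractions relative to the median gene, but its polysome difference was -0.21 as deposited. Its near-identical human copy POLR2J2 was the lowest Pol II subunit in A375 input (-1.07), with 7.34, 7.50 and 1.88 TPM in P and 2.47, 0.397 and 1.41 in S. This copy and POLR2J4 (10.7 TPM in P input and 9.13 in S) could share reads with it, so the A375 values of the 3 are less certain.

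Pol III held the widest contrast within one enzyme in A375. There, 3 of 10 subunits were lower and 1 higher (median -0.74), and in Yumm1.7 2 were lower and none higher (median -0.16). POLR3G and POLR3GL are alternative subunits that give the enzyme either of its forms, and POLR3G is known for being high in stem cells and tumour cells. POLR3G (chromosome 5, 90471748 to 90514553 in GRCh38) had 48.5 TPM in input, 22.0 in monosomes and 67.2 in polysomes of P, and 7.52, 9.13 and 16.3 in S of A375 (input -2.34). POLR3GL (chromosome 1, 145964702 to 145978848) had 80.8, 28.7 and 55.7 TPM in P and 252, 44.5 and 339 in S (input 1.83, polysomes 2.79). POLR3GL was thus the highest and POLR3G the lowest of all 50 members in A375 input. The ratio of POLR3GL to POLR3G was 1.67 in P input, 33.5 in S input, 1.30 and 4.88 in monosomes, and 0.828 and 20.7 in polysomes.

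The same pair differed in Yumm1.7 as well, but through POLR3G. Polr3g had 8.21, 11.4 and 15.2 TPM in P and 1.399, 1.87 and 0.832 in S in Yumm1.7 and was lower in all 3 fractions (input -1.004, monosomes -1.90, polysomes -1.62). Polr3gl had 9.85, 11.5 and 23.9 TPM in P and 8.09, 16.0 and 4.89 in S and stayed within 2-fold of the median gene in each fraction (input 0.68, polysomes -0.55). The ratio of Polr3gl to Polr3g went from 1.20 in P input to 5.79 in S input. It was also larger in S in monosomes (1.004 and 8.57) and polysomes (1.57 and 5.88). POLR3G was the only member that was lower in all 3 fractions of both lines, in Yumm1.7 input just past 2-fold. How many of all genes were lower in this way was not counted.

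**Figure D2:**
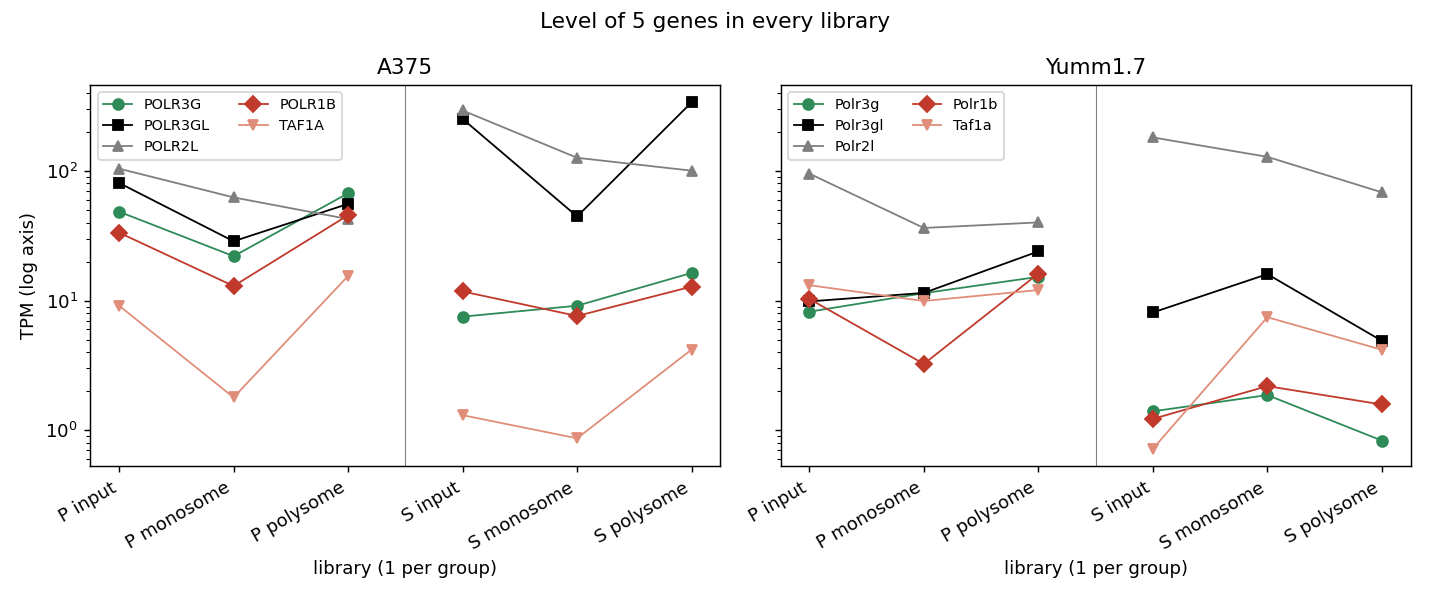
TPM (log axis) of POLR3G, POLR3GL, POLR2L, POLR1B and TAF1A in the 6 libraries of A375 (left) and Yumm1.7 (right), 1 library per point and lines joining the fractions of one state. In A375, POLR3GL and POLR3G lay within 2-fold of each other in P and apart in S, at 252 and 7.52 TPM in input.

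The other Pol III subunits differed less in A375 input, while in Yumm1.7 input Polr3d (-1.47) lay further from the median gene than Polr3g. The catalytic subunit POLR3A had 12.2, 5.94 and 18.2 TPM in P and 6.25, 5.80 and 8.96 in S in A375 (input -0.66) and 3.97, 2.07 and 7.06 TPM in P and 2.84, 3.10 and 2.42 in S in Yumm1.7 (input 0.56). Its partner POLR3B had 8.72, 1.41 and 12.2 TPM in P and 3.02, 1.44 and 4.12 in S in A375, where it was lower in input (-1.07), and 6.37, 4.61 and 11.1 TPM in P and 1.45, 2.71 and 1.03 in S in Yumm1.7 (input -0.66). The ratio of POLR3B to POLR3A in input was smaller in S than in P, at 0.717 in P and 0.484 in S of A375 and 1.60 and 0.509 in Yumm1.7. POLR3D, which pairs with POLR3E at the edge of the enzyme, had 20.3, 7.88 and 37.0 TPM in P and 8.24, 4.20 and 18.0 in S in A375 and 19.7, 12.4 and 48.6 TPM in P and 2.90, 6.20 and 5.14 in S in Yumm1.7. It was lower in input of both lines (-1.004 and -1.47), in A375 just past 2-fold and short of it with a minimum of 5 TPM. POLR3C, POLR3E, POLR3F and POLR3K lay between -0.86 and -0.22 in A375 input and between -0.25 and 0.14 in Yumm1.7.

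Most Pol III initiation factors stayed within 2-fold of the median gene, with class medians of -0.18 in A375 (1 of 11 lower) and 0.13 in Yumm1.7 (2 of 11 higher). BRF1, the TFIIIB subunit of tRNA genes, had 16.1, 3.78 and 25.6 TPM in P and 16.2, 4.93 and 18.8 in S in A375 and 14.3, 2.95 and 24.7 TPM in P and 4.00, 4.02 and 4.80 in S in Yumm1.7. BRF2, which takes its place at promoters of the snRNA type, had 8.73, 6.62 and 15.5 TPM in P and 8.82, 7.30 and 17.8 in S in A375 and 9.91, 6.21 and 15.9 TPM in P and 17.5, 14.6 and 14.5 in S in Yumm1.7. In Yumm1.7, Brf2 was higher in all 3 fractions relative to the median gene (input 1.701), with a polysome difference of -0.13 as deposited. The ratio of Brf1 to Brf2 in input was 1.45 in P and 0.228 in S. In A375 that ratio was 1.84 in both input libraries. BDP1, the remaining TFIIIB subunit, had 9.22, 3.09 and 7.16 TPM in P and 3.41, 5.62 and 21.1 in S in A375, where it was lower in input (-1.01, and -0.996 with a minimum of 5 TPM) and higher in polysomes (1.65). In Yumm1.7 it was low throughout (1.79, 2.93 and 3.53 TPM in P and 0.285, 0.324 and 0.0503 in S).

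MAF1, which represses Pol III when mTORC1 is off, had the highest S minus P difference of the Pol III factors in A375 input (0.33). It had 105, 52.1 and 68.4 TPM in P and 115, 47.7 and 82.8 in S there. In Yumm1.7 it had 42.5, 20.1 and 73.2 TPM in P and 35.8, 34.1 and 21.2 in S (input 0.70). GTF3A, the factor for the smallest ribosomal RNA, had 288, 590.1 and 72.8 TPM in P and 224, 190.3 and 109.7 in S in A375 and 102, 63.7 and 93.0 TPM in P and 76.8, 91.9 and 28.3 in S in Yumm1.7. Neither gene passed 2-fold in input. Of the TFIIIC subunits, which recognise the promoters inside tRNA genes, GTF3C6 was higher in all 3 fractions of Yumm1.7 (input 1.38), with 83.1, 31.4 and 96.0 TPM in P and 113, 80.4 and 132 in S, and had 227, 191 and 115 TPM in P and 174, 83.4 and 136 in S in A375. GTF3C3 had 6.27, 7.85 and 9.07 TPM in P and 1.36, 3.29 and 0.852 in S in Yumm1.7 (input -0.68). The TFIIIC subunits lay between -0.78 and -0.12 in A375 input.

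The subunits shared between the polymerases held members at both ends. POLR2L, a small zinc-binding subunit of all 3 enzymes (chromosome 11, 837356 to 842545 in GRCh38), was the 1 member that was higher in input of both lines (1.68 and 1.86). It had 104, 62.5 and 42.5 TPM in P and 293, 126 and 100.4 in S in A375 and 95.4, 36.3 and 40.1 TPM in P and 181, 128 and 68.4 in S in Yumm1.7, and every S library was above the P library of its fraction. POLR1C, shared by Pol I and Pol III, was the lowest shared subunit in A375 (input -1.13), with 86.0, 31.1 and 151 TPM in P and 33.7, 9.63 and 103 in S, and had 86.3, 48.5 and 116 TPM in P and 41.0, 22.8 and 59.6 in S in Yumm1.7. POLR2H had 47.7, 16.9 and 84.0 TPM in P and 5.17, 12.4 and 34.2 in S in Yumm1.7, the lowest shared subunit there (input -2.04), and 169.8 and 87.6 TPM in A375 input. POLR2F had 139, 106 and 61.6 TPM in P and 89.1, 42.8 and 57.4 in S in A375 and 324, 94.3 and 217 TPM in P and 384, 281 and 154 in S in Yumm1.7 (input -0.44 and 1.18). POLR2K was on opposite sides of the median gene in the lines, within 2-fold in A375 (0.67) and lower in Yumm1.7 (-1.15). The class as a whole had medians of -0.38 in A375, with 1 of 7 lower and 1 higher, and -1.01 in Yumm1.7, with 4 lower and 2 higher.

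Set side by side in input, the 3 enzymes had different levels. Pol II had the highest median subunit level in all 4 input libraries, and Pol I was above Pol III in P of Yumm1.7 and below it in the other 3. In A375, the median subunit of Pol I had 19.3 TPM in P and 8.97 in S, that of Pol II 43.2 and 30.9, and that of Pol III 28.9 and 10.6. Shared subunits, which serve several enzymes, stood above them at 139 and 89.1. In Yumm1.7, the medians were 15.6 and 1.22 for 3 Pol I subunits (17.3 and 2.81 with the 3 rows under older symbols), 83.2 and 30.7 for Pol II, 9.45 and 3.33 for Pol III and 95.4 and 67.1 for shared subunits. Summed TPM gave another picture of Pol III in A375, at 388 in P and 401 in S, since POLR3GL alone held 252 of the latter. Among the largest subunits, the ratio of POLR2A to POLR1A was 2.21 in P and 3.45 in S of A375, and 1.54 and 4.19 in those of Yumm1.7. The ratio of POLR2A to POLR3A was 2.14 in P and 3.41 in S of A375, and 6.07 and 4.16 in those of Yumm1.7, in opposite directions.

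Across the lines, 45 members were tested in both. In input, POLR2L was higher in both and POLR1B, POLR2B, POLR3D, POLR3G and TAF1A were lower in both, which is 2.22% and 11.1% of the pairs where 6.56% and 7.89% of all genes matched by symbol were. No member passed 2-fold in opposite directions, where 1.95% of all matched genes did. With a minimum of 5 TPM, POLR3D of A375 (-0.99) and Polr3g of Yumm1.7 (-0.94) were no longer past 2-fold, so that both left the genes lower in both lines. Without that minimum, each enzyme had 1 or more of the 5 lower genes among its own subunits or factors. With it, Pol III had none. POLR1A, POLR1D, POLR1E, POLR2D, POLR2E, POLR2H and TAF1D were lower in Yumm1.7 only and on the same side in A375 (the plot of both lines). POLR2G and POLR2K were lower in Yumm1.7 and on the other side in A375.

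**Figure D3:**
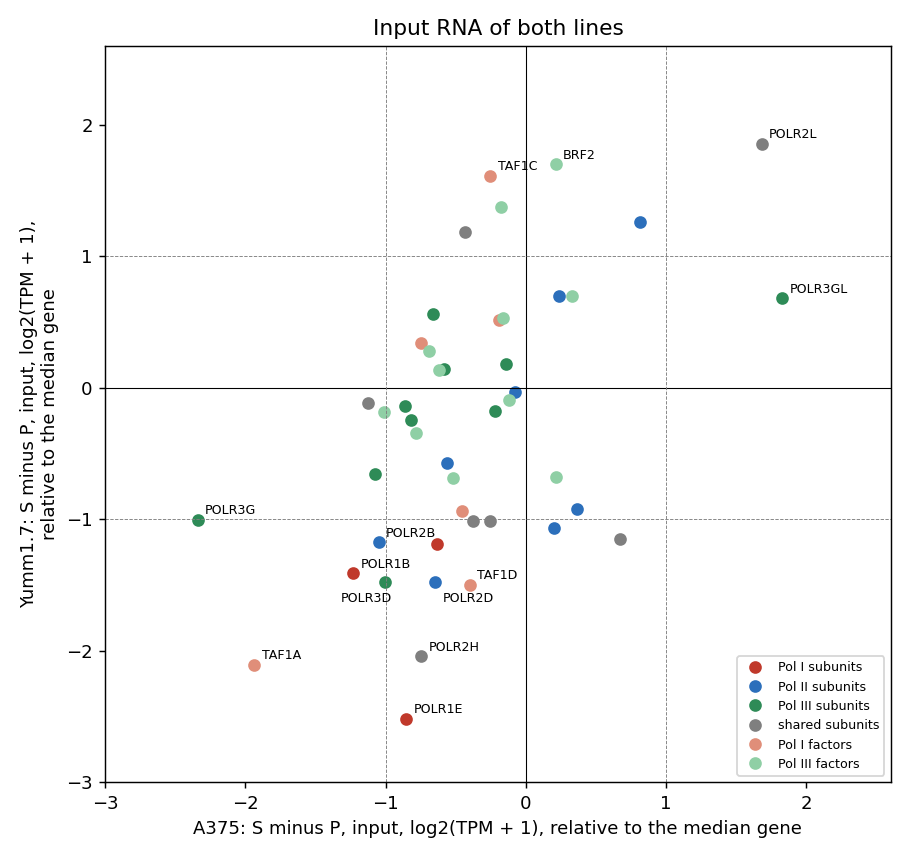
S minus P difference of log2(TPM + 1) in input RNA relative to the median gene, A375 on the x axis and Yumm1.7 on the y axis, 1 point per member tested in both lines, coloured by class. Dashed lines mark 2-fold; POLR2L stands alone at the upper right, past 2-fold in both lines, and POLR1B, POLR2B, POLR3D, POLR3G and TAF1A at the lower left.

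Promoters are shown for 3 of the genes lower in both lines (POLR1B, POLR2B and TAF1A), for the gene higher in both (POLR2L) and for POLR3GL, the highest member of A375 input. They are the 250 bases before the first listed start of each human gene, from RefSeq on GRCh38.p14, read 5′ to 3′ on the gene's strand. RefSeq's start can differ from that of GENCODE 29, which gave the gene spans above, and the window of POLR2B lies inside the span and those of POLR1B and POLR2L partly inside. Their positions are chr2:112541786-112542035 (plus strand), chr4:56978646-56978895 (plus strand), chr1:222589934-222590183 (minus strand), chr11:842530-842779 (minus strand) and chr1:145964440-145964689 (plus strand). Capitals mark matches on either strand. The E-box was searched for with the letters CACGTG, the CCAAT box as named, and the GC box, to which Sp1-type factors bind, with the letters GGGCGG. The ETS site was written CCGGAAG, the TATA box TATAAA, and the CRE, named for cyclic AMP, TGACGTCA. The NRF1 site was searched for as its palindrome of 10 letters.
POLR1B: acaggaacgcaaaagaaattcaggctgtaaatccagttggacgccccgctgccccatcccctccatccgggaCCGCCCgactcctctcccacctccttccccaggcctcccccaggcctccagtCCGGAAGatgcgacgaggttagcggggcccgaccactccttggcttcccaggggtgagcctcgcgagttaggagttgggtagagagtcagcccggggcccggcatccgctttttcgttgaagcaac
POLR2B: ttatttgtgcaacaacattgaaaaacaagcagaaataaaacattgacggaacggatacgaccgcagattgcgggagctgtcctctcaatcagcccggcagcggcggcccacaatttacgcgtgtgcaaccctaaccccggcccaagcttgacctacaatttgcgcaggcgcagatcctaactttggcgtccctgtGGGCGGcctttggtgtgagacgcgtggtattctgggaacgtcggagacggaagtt
TAF1A: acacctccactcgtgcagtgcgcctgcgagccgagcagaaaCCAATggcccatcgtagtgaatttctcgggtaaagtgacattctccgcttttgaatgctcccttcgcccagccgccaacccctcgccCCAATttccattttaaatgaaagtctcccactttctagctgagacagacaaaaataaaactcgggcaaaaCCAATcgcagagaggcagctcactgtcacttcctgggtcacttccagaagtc
POLR2L: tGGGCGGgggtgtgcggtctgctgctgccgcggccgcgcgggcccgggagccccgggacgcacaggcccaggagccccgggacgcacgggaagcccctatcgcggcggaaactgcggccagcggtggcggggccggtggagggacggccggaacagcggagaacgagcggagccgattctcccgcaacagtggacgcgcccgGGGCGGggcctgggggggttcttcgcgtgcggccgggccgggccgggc
POLR3GL: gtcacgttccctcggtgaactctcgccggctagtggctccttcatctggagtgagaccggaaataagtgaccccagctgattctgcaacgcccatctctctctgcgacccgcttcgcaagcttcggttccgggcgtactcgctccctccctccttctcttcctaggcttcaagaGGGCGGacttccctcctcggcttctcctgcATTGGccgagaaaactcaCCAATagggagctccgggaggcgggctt
The 5 windows did not share one motif. TAF1A held 3 CCAAT boxes and no GC box, POLR2L held 2 GC boxes and no CCAAT box, and POLR3GL held both kinds. The GC box was the most frequent of the motifs over the machinery, in 23 of 39 members with a promoter sequence (59.0%) and in 42.3% of all 27305 promoters. The ETS site was in 10 of 39 (25.6%, against 8.82% of all), the E-box in 6 (15.4% against 6.49%) and the CCAAT box in 11 (28.2% against 33.0%). The NRF1 site and the CRE were in 3 each (7.69%, against 1.13% and 1.77%) and the TATA box in 2 (5.13% against 11.1%). A match is a description of letters and not of a bound site. The windows of POLR1E, POLR2G, POLR2I, POLR2J, POLR2J3, POLR2J4, POLR3D, POLR3G, POLR2K, BRF2 and MAF1 were not analysed here.

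The lists of genes that work with the polymerases were read against the same background (16.2% of all genes lower and 15.6% higher in A375 input, 22.3% and 23.1% in Yumm1.7). Their medians lay below the median gene in both lines. Of the Pol II general factors, which place the enzyme at promoters, 4 of 30 were lower and 2 higher in A375 input (median -0.48) and 11 of 31 and 3 in Yumm1.7 (-0.75). The genes named from these lists were chosen after their values were seen. The TFIIH subunit GTF2H2, which has near-identical human copies, had 26.0 and 8.33 TPM in P and S input of A375 and 20.4 and 2.13 TPM in Yumm1.7. CCNH, the cyclin of TFIIH, had 77.6 and 31.8 TPM in A375 and 25.8 and 5.41 TPM in Yumm1.7. Among polymerase assembly factors, 4 of 10 were lower and 0 higher in A375 input (median -0.23) and 4 of 10 and 1 in Yumm1.7 (-0.62). The assembly factor RPAP3 (34.5 and 7.10 TPM in A375 and 10.4 and 0.945 TPM in Yumm1.7), the GTPase GPN3 (75.2 and 26.4 TPM, and 12.7 and 0 TPM as listed) and the helicase RUVBL2 (259 and 111 TPM, and 133 and 14.1 TPM) were lower in both lines. Of the pausing and elongation factors of Pol II, 2 of 15 were lower and 1 higher in A375 input (median -0.39) and 0 of 12 and 1 in Yumm1.7 (-0.14).

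Of 6 other Pol III genes, for the snRNA activating complex and the La protein that binds new Pol III transcripts, 3 of 6 were lower and 0 higher in A375 input (median -0.67) and 1 of 6 and 2 in Yumm1.7 (-0.58). The La gene SSB had 342 and 96.2 TPM in P and S input of A375 (-1.62) and 233 and 61.2 TPM in Yumm1.7 (-0.97, within 2-fold). In polysomes it had 535 and 552 TPM in A375 and 381 and 104 TPM in Yumm1.7. The higher genes of this list in Yumm1.7 input were Snapc4 (2.02) and Snapc5 (1.19). Of the 3 genes for mitochondrial transcription, 2 of 3 were lower and 0 higher in A375 input (median -1.03) and 2 of 3 and 1 in Yumm1.7 (-1.28). The transcription and packaging factor TFAM had 62.3 and 15.8 TPM in A375 and 19.8 and 0.816 TPM in Yumm1.7, whereas the mitochondrial polymerase gene Polrmt was higher in Yumm1.7 (17.0 and 27.0 TPM). No test was run on these lists.

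The differences between S and P were then read in the fractions. In A375 monosomes, 8 of 50 members were lower and none higher, where 13.2% and 11.7% of all genes were, and in polysomes 9 were lower and 4 higher, where 15.6% and 16.5% were. As deposited, the monosome counts were 2 higher and 8 lower. Pol I subunits had the lowest class median in A375 polysomes (-1.09, with 3 of 6 lower), followed by Pol I factors (-0.72) and Pol III subunits (-0.66). The members higher in A375 polysomes were POLR3GL (2.79), BDP1 (1.65), POLR2L (1.43) and POLR2J (1.29). In all 3 fractions of A375, POLR1G and POLR3G were lower and no member was higher, where 6.33% and 6.24% of all genes were.

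In Yumm1.7 monosomes, 6 of 45 members were lower and 8 higher, where 24.0% and 25.4% of all genes were. In polysomes 11 were lower and 6 higher, where 22.5% and 24.1% were. As deposited, 8 were higher and 12 lower in monosomes, where the median gene itself stood at -0.21. In polysomes the split was 0 higher and 37 lower, with the median gene at -1.53. Centring on genes of at least 10 TPM gave 8 higher and 11 lower in monosomes. Pol I subunits again had the lowest class median in polysomes (-1.20 over 3 genes). With the 3 rows under older symbols it was -0.77, near that of Pol III subunits, and Cd3eap was higher in monosomes (1.08) and polysomes (1.38). Pol III subunits went from -0.16 in input to -0.69 in polysomes, with 4 of 10 lower. Shared subunits went the other way, from -1.01 to 0.26. Brf2, Gtf3c6, Polr2f, Polr2j and Polr2l were higher in all 3 fractions and Polr1e, Polr3g and Taf1d lower, where 14.1% and 11.7% of all genes were, but as deposited the polysome differences of Brf2, Polr2f and Polr2j were -0.13, -0.50 and -0.21.

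**Figure D4:**
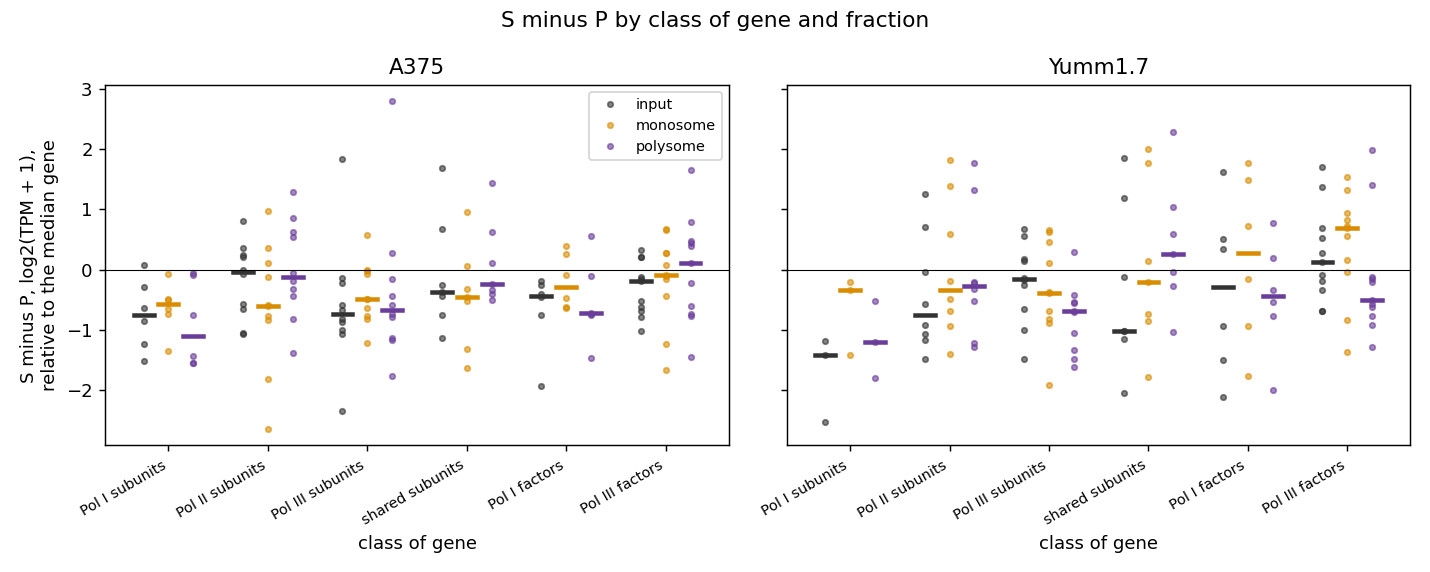
S minus P difference of log2(TPM + 1) relative to the median gene for each tested member (points) and class median (bars) in input, monosome and polysome libraries of A375 (left) and Yumm1.7 (right). Subunits of each of the 3 enzymes had class medians below 0 in all 3 fractions of both lines. Those of Pol I ranged from -1.41 in Yumm1.7 input to -0.33 in Yumm1.7 monosomes, where Pol II and Pol III had -0.33 and -0.38.

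Polysome and monosome libraries of the same state were set against each other to show which of these mRNAs sediment with many ribosomes. In A375 P, 15 of 50 members were at least 2-fold higher in polysomes relative to the median gene and 12 lower, where 19.1% and 20.8% of all genes were. The counts were 31 higher and 5 lower as deposited, and 9 higher and 16 lower when centred on genes of at least 10 TPM. POLR2B had the highest ratio (6.65 TPM in monosomes and 129 in polysomes, 3.04), followed by UBTF (2.35) and POLR2A (2.26). GTF3A had the lowest (590.1 and 72.8 TPM, -4.05). It was followed by POLR2I, a small zinc-binding Pol II subunit (105, 140.3 and 29.1 TPM in P and 108, 80.3 and 46.1 in S, ratio -3.28). Pol II subunits held members at both ends, so that their median (-1.69) became 0.66 when POLR2M and the POLR2J copies were left out.

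In A375 P, long coding sequences went with high ratios. The median ratio was -1.82 for 11 members with a human coding length under 500 nt, 0.10 for 18 between 500 and 1500 nt and 1.14 for 19 of 1500 nt or more. Spearman's rho between length and ratio was 0.70 across 48 members and 0.33 across all 10803 genes with a length, as a description over genes of one pair of libraries, which are not independent replicates. Among the members of 500 to 1500 nt, GTF3A was lowest and POLR2G highest (1.76). In A375 S, rho was 0.51 across the members, and the 3 medians were -0.58, 0.22 and 0.95. POLR2A has no length here because its GENCODE 29 gene model carries an error mark. POLR2J4 has none because it is listed there as a processed transcript. In Yumm1.7, with lengths taken from the human genes of the same symbol, rho was 0.24 in P and -0.11 in S across 44 members (0.13 and -0.11 across all genes).

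**Figure D5:**
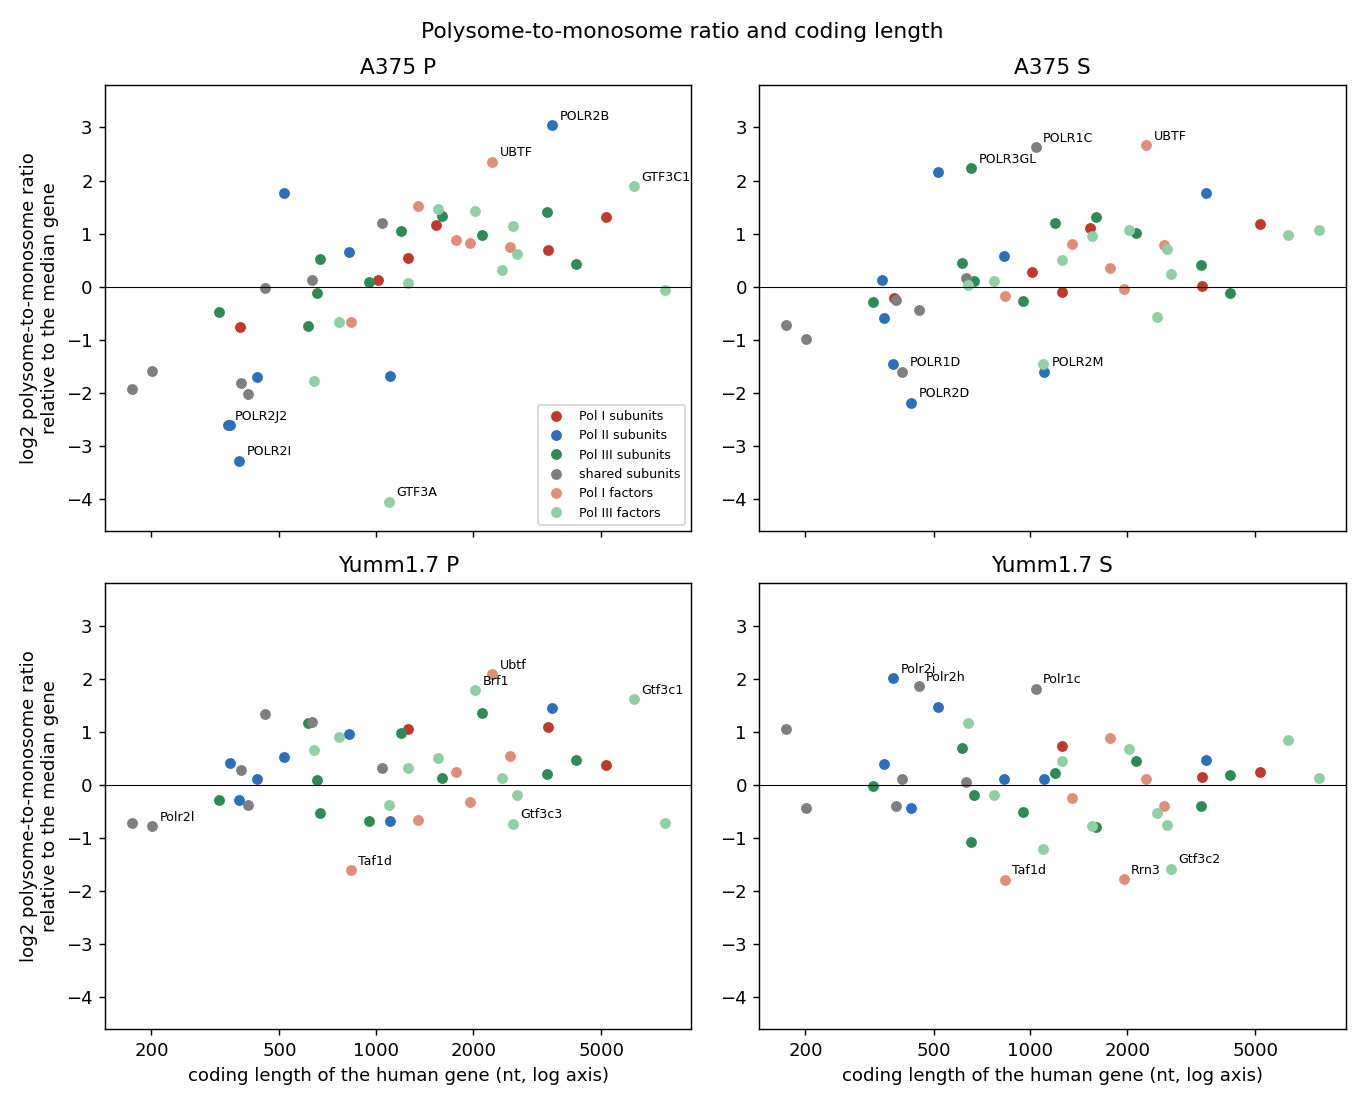
Log2 polysome-to-monosome ratio relative to the median gene (y axis) against the coding length of the human gene in nucleotides (log x axis) for members of A375 (top) and Yumm1.7 (bottom) in P (left) and S (right), 1 point per member coloured by class, with the 3 highest and 3 lowest members named. The points slope upward in A375 P (rho 0.70) and show no upward slope in Yumm1.7 S (rho -0.11).

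In A375 S, 13 of 50 members were higher in polysomes and 5 lower, where 20.8% and 16.7% of all genes were. They became 23 higher and 1 lower as deposited, and 6 higher and 7 lower when centred on genes of at least 10 TPM. UBTF (2.66) and POLR1C (2.63) had the highest ratios and POLR2D (-2.19) the lowest, followed by POLR2M, a Pol II-associated protein that blocks initiation (27.4, 24.8 and 15.8 TPM in P and 30.9, 23.4 and 11.7 in S, ratio -1.60). POLR3GL, at 44.5 TPM in S monosomes and 339 in S polysomes, came after them (2.23), where in P it was level with the median gene (-0.12). In Yumm1.7 P, 11 of 45 were higher and 1 lower, where 14.0% and 13.4% of all genes were (6 higher and 2 lower when centred on genes of at least 10 TPM). Ubtf (2.08) and Brf1 (1.79) led, and Taf1d (-1.60) and Polr2l (-0.78) were lowest. BRF1, GTF3C1, POLR2A, POLR2B and UBTF were higher in P polysomes of both lines, which is 11.1% of 45 pairs. The share of all matched genes was not counted for that comparison. In Yumm1.7 S, 6 were higher and 5 lower, where 13.2% and 10.9% were (3 higher and 9 lower as deposited), with Polr2i (2.01) and Polr2h (1.86) highest and Taf1d (-1.78) and Rrn3 (-1.77) lowest. Polr2i had 53.5, 28.99 and 45.2 TPM in P and 45.3, 17.6 and 53.6 in S.

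The polysome-to-monosome ratio of S was set against that of P. In A375, 12 of 50 members had a ratio that was higher in S and 3 lower, where 13.1% and 7.88% of all genes did (9 higher and 8 lower as deposited). After POLR2J2 (2.64), the largest were GTF3A (2.504), POLR2J4 (2.39), POLR3GL (2.26), POLR2J (1.92), POLR2I (1.74) and GTF3C6 (1.71). The 3 that were lower were POLR2B (-1.37), POLR3B (-1.10) and GTF3C1 (-1.004), each with a coding sequence over 1500 nt. By coding length, the medians were 0.51, 0.18 and -0.52 from short to long, and rho was -0.63 across the members and -0.33 across all genes. GTF3A carried 590.1 TPM in P monosomes and 190.3 in S monosomes while its polysome level went from 72.8 to 109.7 TPM.

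In Yumm1.7, 3 of 45 had a higher ratio in S and 9 a lower one, where 17.3% and 12.6% of all genes did. The split was 0 higher and 34 lower as deposited, where the median gene itself stood at -1.42. Centred on genes of at least 10 TPM, 6 were higher and 5 lower. On the main scale, the higher ones were Polr2i (2.35), Polr2k (1.83) and Polr1c (1.53), and all 3 were higher in A375 as well (1.74, 1.13 and 1.34). For this ratio, the share of all matched genes higher in both lines was not counted. Polr2a (-1.95), Ubtf (-1.92), Rrn3 (-1.403) and Gtf3c2 (-1.34) were the lowest. Pol III factors had 4 of the 9 lower members. By coding length, the medians were 0.38, -0.14 and -0.88 from short to long (rho -0.39 across the members and -0.23 across all genes).

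The polysome level was also set against the input level, which leaves the monosome libraries out. In A375, only BDP1 (2.69) and POLR2J2 (1.05) had a polysome-to-input ratio that was higher in S and none had a lower one, where 5.87% and 2.48% of all genes did. In Yumm1.7, 4 of 45 were higher, namely Taf1a (2.30), Polr2h (2.30), Polr2k (1.10) and Polr2i (1.07), and 5 lower, where 11.3% and 8.91% did (2 higher and 16 lower as deposited). The lower ones were Polr3gl (-1.23), Polr3e (-1.19), Gtf3c2 (-1.19), Rrn3 (-1.12) and Ubtf (-1.05). All 10 Pol III subunits of Yumm1.7 lay below 0 on this measure (median -0.56), whereas the 10 of A375 had a median of 0.36. GTF3A and POLR3GL of A375, whose polysome-to-monosome ratios were far higher in S, were just under 2-fold here (0.98 and 0.99).

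Of the 8 A375 rows outside the classes, 3 passed the filter. The antisense row GTF3C2-AS2 had 14.5, 5.998 and 5.11 TPM in P and 3.005, 1.62 and 1.79 in S and was lower in input (-1.75) and monosomes (-1.46). The sources used here do not give the strand setting of the counting, so its reads cannot be told apart from those of GTF3C2. The pseudogene GTF3C6P2 and the readthrough POLR2J2-UPK3BL1 were the other two, with means of 1.52 and 1.37 TPM, and the readthrough was listed at 0 in 4 of 6 libraries.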

How the data were processed

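Polysome profiling gave 1 RNA library for each state (P and S), fraction (input, monosome and polysome) and line (human A375 and mouse Yumm1.7), 12 in all. The authors deposited 1 table of TPM per line, with genes in rows and the 6 libraries in columns. Builds GRCh38 (hg38) and GRCm38 (mm10) are named per the submitters' processing notes, and mRNA was selected with poly-T beads per the labels' protocols. The sources used here do not give the aligner, the counter, its annotation or its strand setting. TPM keeps no depth, so the depth and the counting error of each value are unknown.

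Differences of log2(TPM + 1) were taken over genes whose mean over the 6 libraries of a line reached 1 TPM (12638 in A375 and 10492 in Yumm1.7), the median gene was subtracted, and members past 2-fold were counted beside all genes. With 1 library per group no test was run. Symbols were matched to GENCODE 29 for human coding lengths and positions, and to RefSeq promoters for sequences. Values are given in every library for the 2 largest subunits of each enzyme, RRN3, UBTF, MAF1, BRF1, BRF2, BDP1, GTF3A, POLR3G and POLR3GL. They are also given for the highest and lowest member of each class in input, the 2 highest and 2 lowest members by polysome-to-monosome ratio in each state, and members past 2-fold in both lines. A few further members are named with the values of some libraries, and 1 Pol III subunit, which enters the counts and class medians, is not reported here by itself. The members and lists were chosen with earlier results of these data known. Alternatives were another pseudocount (0.1 TPM), no filter or a minimum of 5 TPM, no centring, centring on genes of at least 10 TPM, other memberships of the classes and, chosen after seeing the data, TPM rescaled without mitochondrially encoded genes and Pol I of Yumm1.7 with its 3 rows under older symbols. The calculation was tested on simulated data with little noise and changes planted in S input only. That checks the arithmetic and not how single libraries vary. Python 3.11.15, pandas 2.3.3, numpy 2.4.6 and matplotlib 3.10.9 were used.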

Additional observations from a re-analysis of the deposited data

Results flagged for a closer look

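Members that passed 2-fold in opposite directions in the lines are listed here with their values relative to the median gene. The share of all matched genes that did so was counted for input only (1.95%), where no member did. Whether these members stand out from other genes is therefore not known. The difference between the lines was not tested, since each value rests on 1 pair of libraries. In monosomes, the S minus P values were -1.23 for A375 and 1.54 for Yumm1.7 in GTF3C6, a TFIIIC subunit, and -1.32 and 1.78 in POLR2F, a subunit of all 3 polymerases. The A375 values of GTF3C6 are less certain because a pseudogene copy is listed beside it. POLR2I, a small Pol II subunit, had a polysome-to-monosome ratio in S of -1.45 in A375 against 2.01 in Yumm1.7. For POLR3GL, the alternative to POLR3G in Pol III, this ratio was 2.23 in A375 against -1.07 in Yumm1.7. The S minus P difference of the POLR3GL ratio was 2.26 in A375 against -1.11 in Yumm1.7.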

How the results depend on the processing

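No paired analysis was possible because each group has 1 library and the labels give no replicate numbers. Of 181 alternative values of the counts and class levels, 140 stayed within 1.5 times the main value and 41 moved. Of 4508 alternative values of single members and class medians, 4 reversed direction, 117 fell below 2-fold and 259 passed it. Counts below are members at least 2-fold higher or lower. Without centring on the median gene, A375 gave 2 higher in monosomes, 31 higher and 5 lower for polysomes against monosomes in P and 23 and 1 in S, and 8 with a polysome-to-monosome ratio lower in S. Without centring, Yumm1.7 gave 0 higher and 27 lower in input, 12 lower in monosomes, 0 higher and 37 lower in polysomes, 30 and 0 for polysomes against monosomes in P and 3 and 9 in S. There the polysome-to-monosome ratio was higher in S for 0 and lower for 34, and the polysome-to-input ratio for 2 and 16. Without centring, the Yumm1.7 median gene itself stood at -1.53 in polysomes, -1.42 for the polysome-to-monosome ratio and -0.59 for the polysome-to-input ratio. In that setting, the Yumm1.7 polysome difference was -0.13 for Brf2, -0.50 for Polr2f and -0.21 for Polr2j. Centred on genes of at least 10 TPM, polysomes against monosomes gave 9 higher in P and 6 in S of A375 and 6 higher and 2 lower in P of Yumm1.7. In Yumm1.7 that setting gave 11 lower in monosomes and 6 higher and 5 lower for the S minus P difference of the polysome-to-monosome ratio. With a minimum of 5 TPM, A375 gave 7 higher for polysomes against monosomes in S and 1 with a higher polysome-to-input ratio, and Yumm1.7 gave 5 higher and 5 lower for the S minus P difference of the polysome-to-monosome ratio. With no filter, A375 gave 2 higher in monosomes and 5 with a lower polysome-to-monosome ratio, and Yumm1.7 16 with a lower one. With a pseudocount of 0.1 TPM, A375 gave 1 higher in monosomes, and Yumm1.7 gave 6 with a higher polysome-to-monosome ratio and 8 with a lower polysome-to-input ratio. Rescaled without mitochondrially encoded genes, A375 gave 1 higher in monosomes. Without POLR2M and the POLR2J copies, the Pol II median of polysomes against monosomes in A375 P was 0.66. With summed in place of median TPM, the ratio of S to P in input went from 0.368 to 1.03 for Pol III and from 0.641 to 0.973 for shared subunits of A375, and from 0.369 to 0.581 for Pol II of Yumm1.7. With the 3 rows under older symbols, that ratio for Pol I of Yumm1.7 went from 0.0783 to 0.162. Centring, filters and summing change these values by construction. Depth is unknown, so low values such as those of Bdp1 and POLR1H have no stated precision.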
